A study of Mus musculus with 4 samples.

Results

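Interferon-stimulated genes are the genes that cells switch on after an interferon binds its receptor, and 39 of them, listed by gene symbol, were followed over the 4 arrays of the series. Of the 39, 37 had a probe set that names 1 gene, out of 18193 such genes on the array, and a gene was represented by the brightest of these probe sets, that with the highest mean log2 signal over the 4 arrays. Isg15 and Ifi44 had none and are not analysed here. Of the 37, 36 exceeded the floor on at least 1 array and count as measured below, and 34 exceeded it on all 4. The floor is the median signal of all probe sets, 89.8, and lower signals were raised to it before ratios were taken. Mx2 was under the floor on all 4 arrays, at 9.28 to 15.6.

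The arrays hold RNA of primary cells from mouse intestinal crypts, plated on fibronectin. There was 1 array for each of 4 groups: cells left untreated, cells given interleukin-17A (IL-17A, an inflammatory cytokine, 50 ng/ml) for 6 h, cells given fibroblast growth factor 2 (FGF2, 5 ng/ml) for 6 h, and cells given both for 6 h. No group was given an interferon according to the labels, and the strain, age and number of animals were not given in the sources used here. How long untreated cells were cultured is also not stated in the labels, so treatment and any difference in time in culture cannot be told apart. The series was made to see how FGF2 and IL-17A cooperate in wound healing of the intestinal epithelium, as its title says. With 1 array per group, every difference below is one between arrays, and no test or error across samples can be given.

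As background, type I and type III interferons act through receptors that activate the kinases JAK1 and TYK2. A complex that holds STAT2 and IRF9 then forms and binds the interferon-stimulated response element (ISRE) near the start of its target genes. Type II interferon acts at gamma-activated sites (GAS). The target genes encode sensors of viral nucleic acid, proteins that block viral translation or entry, and parts of the antigen-presentation pathway, and in the intestinal epithelium some of them are known to be expressed at a tonic level without infection.

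Promoter windows of 300 bases (250 before to 50 after the annotated start, RefSeq, GRCm38.p6) were at hand for 30 of the 39 genes. The ISRE core (GAAA, any 2 bases, GAAA), searched on both strands, was found in 15 of the 30, against 3.99% of all 27025 genes with a window. The GAS core TTCNNNGAA, also searched on both strands, was found in 9 of the 30 against 9.55% of all genes, and in Bst2 and Ifitm3 a GAS match overlapped an ISRE match. A match describes the letters of the window and does not show that a factor binds there. The stretches around the ISRE core are shown for the 6 members that differed at least 1.5-fold between arrays and held one, so that their letters can be set beside the values given below. Capitals mark the core, which reads TTTC, 2 bases, TTTC where it lies on the other strand.
Ddx60 (chr8:61928009-61928102, plus strand): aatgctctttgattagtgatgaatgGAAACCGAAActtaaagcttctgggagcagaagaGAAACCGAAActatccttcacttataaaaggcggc
Rsad2 (chr12:26456538-26456597, minus strand): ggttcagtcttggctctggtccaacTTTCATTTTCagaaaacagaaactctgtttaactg
Ifit3 (chr19:34583348-34583441, plus strand): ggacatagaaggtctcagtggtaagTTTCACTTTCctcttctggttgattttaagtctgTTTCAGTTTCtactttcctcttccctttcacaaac
Oas3 (chr5:120777700-120777759, minus strand): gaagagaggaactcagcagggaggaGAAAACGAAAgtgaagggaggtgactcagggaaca
Gbp2 (chr3:142620579-142620638, plus strand): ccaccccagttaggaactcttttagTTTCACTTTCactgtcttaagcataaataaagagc
Gbp3 (chr3:142559974-142560039, plus strand): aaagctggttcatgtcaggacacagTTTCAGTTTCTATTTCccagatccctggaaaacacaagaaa
The core was found at 2 places in the windows of Ddx60, Ifit3 and Gbp3, and in the last the copies overlapped. Among the 28 measured members with a window, the median log2 ratio of both factors over untreated was -0.45 for the 14 with an ISRE core and -0.29 for the 14 without one. The corresponding medians with FGF2 alone were -0.18 and -0.31.

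Most measured members had lower signals in the treated cultures, with differences that were small for the majority of genes. With both factors together the median log2 ratio to untreated cells was -0.32, a change in signal of -19.9%, and 31 of 36 were below 0. Over all 12258 measured genes the median was 0.00 and 49.6% were below 0. With FGF2 alone the members' median was -0.20 and 33 of 36 were below 0, against 51.6% of all measured genes. With IL-17A alone it was -0.13 and 25 of 36 were below 0, against 52.8%. In bulk RNA such as this, fewer cells of a type and less RNA per cell cannot be told apart.

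The size of the differences can be read against all genes. With both factors, 10 of 36 members (27.8%) were at least 1.5-fold lower than in untreated cells, where 6.52% of all measured genes were, and 2 were at least 2-fold lower, against 1.73%. No member, 0 of 36, was 1.5-fold higher, against 3.34%, or 2-fold higher, against 0.906%. With FGF2 alone 4 of 36 (11.1%) were at least 1.5-fold lower against 4.82%, and 1 at least 2-fold lower against 0.963%. None, 0 of 36, was 1.5-fold higher with FGF2, against 2.34%, or 2-fold higher, against 0.473%. With IL-17A alone 2 of 36 (5.56%) were at least 1.5-fold lower against 1.95%, and 0 at least 2-fold lower against 0.228%. Ifitm1, 1 of 36, was at least 2-fold higher against 0.375%, and it alone was 1.5-fold higher against 1.44%. Counts this small are descriptions of single arrays. The direction depended in part on how arrays were scaled: when each was centred on its median signal, the median of all genes moved to 0.14 in the comparison of both factors with untreated cells, 26 of 36 members were below 0 against 30.7% of all genes, and the members' median was -0.17. Counts below 0 were then 30 with FGF2 against 37.3% of all genes, and 21 with IL-17A against 44.2%.

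**Figure D1:**
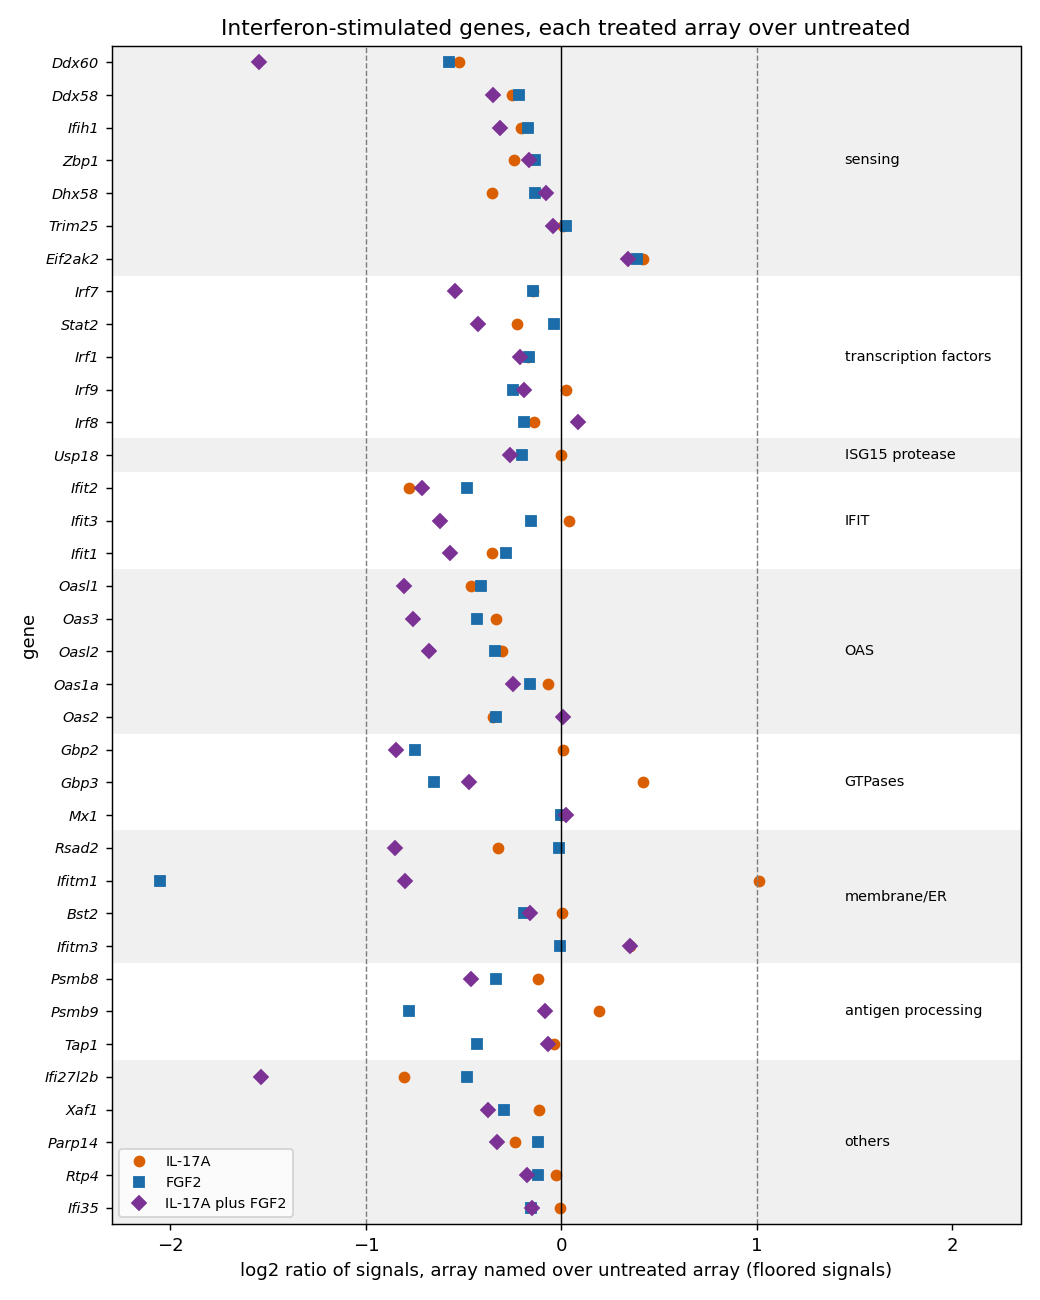
Log2 ratio of each treated array to the untreated array (x axis, floored signals) for the 36 measured interferon-stimulated genes (y axis), grouped by role; circles are IL-17A, squares FGF2, diamonds both factors, dashed lines 2-fold. Most diamonds lie left of 0, Ddx60 and Ifi27l2b are the diamonds beyond 2-fold, and Ifitm1 has its circle at 1.01 and its square at -2.06.

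As a yardstick of error, the interaction of the factors (log2 both − IL-17A − FGF2 + untreated) was taken as if it were noise. For log2 ratios this gave SDs of 0.29 at a mean log2 signal under 8, 0.20 from 8 to 10, 0.13 from 10 to 12 and 0.09 over 12, over all measured genes. It is not a replicate error, since true interaction would enlarge it and the floor shrinks it. Of the 36 members, 27 with IL-17A, 26 with FGF2 and 19 with both factors lay within 2 such SDs of untreated cells (75%, 72.2% and 52.8%). Of all measured genes 92.1%, 82.7% and 78.2% did. The account by role below gives array by array the 12 members whose signals differed at least 1.5-fold between their highest and lowest array. The other 24 measured members differed by 1.02- to 1.48-fold.

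The combined array held the lowest signal of 21 of 36 members, against 24.9% of all measured genes, and the FGF2 array that of 9, against 23.5%. The untreated array held the highest signal of 23 of 36, against 29.96% of all measured genes. The IL-17A array held the highest signal of 9 members, against 20.1%, the FGF2 array of 1, against 21.9%, and the combined array of 3, against 28.0%.

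A pair of arrays without the other factor and a pair with it each give a reading of a factor, and these pairs share no array. For FGF2, 28 of 36 members were lower in both pairs (77.8%), against 32.9% of all measured genes, and 0 were higher in both, against 31.6%. For IL-17A, 20 of 36 were lower in both pairs (55.6%) against 28.4%, and 6 were higher in both (16.7%) against 25.8%, namely Ifitm1, Ifitm3, Gbp3, Psmb9, Irf9 and Bst2. With median-centred arrays these counts were 20 lower and 3 higher for FGF2 (19.4% and 48.7% of all genes) and 16 lower and 11 higher for IL-17A (18.7% and 36.6% of all genes).

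**Figure D2:**
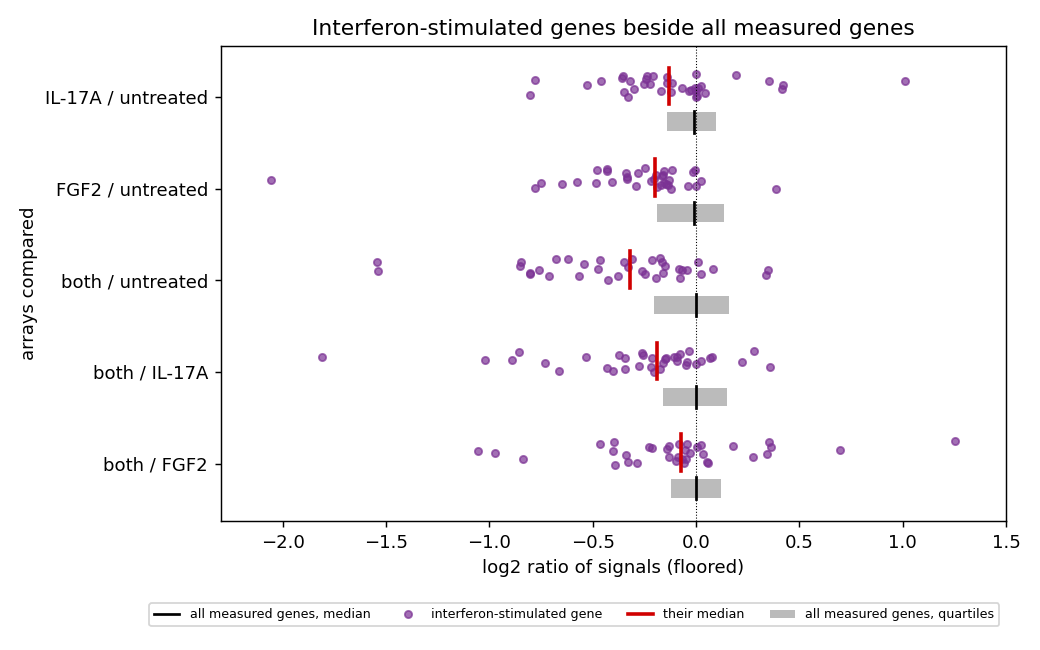
Log2 ratios (x axis) in the 5 comparisons of arrays (y axis); each dot is 1 of the 36 measured interferon-stimulated genes, the red line their median, the grey bar the quartiles of all 12258 measured genes and the black line their median. The medians of the members are -0.13, -0.20, -0.32, -0.19 and -0.08 from top to bottom, and those of all genes lie between -0.01 and 0.00.

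Markers of the cells present were measured beside these genes. The labels call the cells epithelial, and Epcam, Krt8 and the other 6 epithelial markers were over the floor on all arrays, with summed signals of 116809 to 124670. All 10 fibroblast, 10 endothelial and 8 smooth muscle markers were over the floor on at least 1 array as well. The fibroblast sum was 73122 in untreated cells, 77249 with IL-17A, 64023 with FGF2 and 67454 with both, the smooth muscle sum 34684, 35475, 25086 and 23310, and the endothelial sum 8943, 8392, 11517 and 12373. Of the measured markers, 8 of 10 fibroblast and 8 of 8 smooth muscle ones were below untreated cells with FGF2 alone, and 7 of 10 and 8 of 8 with both. The fibroblast markers Vim and Dcn were higher on both arrays with FGF2 than in untreated cells. On these arrays most measured members were below untreated cells too, 33 of 36 with FGF2 alone and 31 of 36 with both. The enterocyte sum was 24844, 12367, 19136 and 9288, lowest with both factors, as were 21 of 36 members. The macrophage sum was 5829 in untreated cells and 7546 with both, but Cd14 alone carried the higher value, at 862 and 3081. Without Cd14 the sum was 4967 in untreated cells, 4894 with IL-17A, 4334 with FGF2 and 4466 with both, and Csf1r lay at 375 to 396. Of the 10 measured macrophage markers 7 were below and 2 above untreated cells with FGF2 alone. With both factors 5 were below and 4 above. Of the 5 matched B cell markers 0 were over the floor, of 8 T and NK cell markers 2, and Cd3e lay at 10.4 to 15.9. Their part in the members' differences was not tested.

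Sensors of viral nucleic acid and their partners come first in the pathway. Ddx60, a helicase linked to RNA sensing, had signals of 574 in untreated cells, 398 with IL-17A, 385 with FGF2 and 197 with both. It was lowest with both factors, 2.92-fold below untreated cells, where its yardstick was 0.20 on the log2 scale against a log2 ratio of -1.55. Each factor alone gave a signal 1.44-fold (IL-17A) or 1.49-fold (FGF2) lower. A dimmer probe set of Ddx60 was over the floor in untreated cells alone, at 103, and at 24.9 to 45.8 on the other arrays. With the floor at the 75th percentile of signals, the log2 ratio of both factors was -0.30, since most of the difference then lay under the floor. The sensors Ddx58 (RIG-I) and Ifih1 (MDA5), which detect different forms of viral RNA, were 1.27- and 1.24-fold lower with both factors. Dhx58, a helicase that modulates them, was 1.28-fold lower with IL-17A and 1.05-fold lower with both, and Zbp1, a sensor of Z-form nucleic acid, 1.12-fold lower with both.

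Eif2ak2 (PKR), a kinase that halts translation when it binds double-stranded RNA, went the other way. Its signals were 569 in untreated cells, 761 with IL-17A, 745 with FGF2 and 721 with both, so that all treated arrays were above the untreated one by 1.27- to 1.34-fold. Its other probe sets did not all share this: one was at 182, 208, 188 and 147 in the same order, below untreated cells with both factors. Trim25, a ubiquitin ligase that acts with RIG-I, was within 1.05-fold over the 4 arrays in its brightest probe set, which can detect related transcripts. Its dimmer probe sets can detect related transcripts as well. One had signals of 3637, 3600, 3572 and 3337, 1.09-fold lower with both factors. Another had 1281, 1146, 826 and 726, 1.77-fold lower with both factors, so the probe sets of Trim25 disagree.

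Among the transcription factors that carry the response, 0 of 5 differed 1.5-fold between arrays in their brightest probe sets. Irf7, which amplifies interferon production, had signals of 1759 in untreated cells, 1594 with IL-17A, 1592 with FGF2 and 1206 with both. Only the array with both factors stood apart for Irf7, 1.46-fold below untreated cells, whereas each factor alone was 1.10- or 1.11-fold below. Stat2, a subunit of the ISRE-binding complex, was 1.35-fold lower with both and its partner Irf9 1.14-fold lower. A dimmer probe set of Stat2 had 127, 127, 155 and 98.8 in the same order of arrays, 1.22-fold higher with FGF2 alone and 1.29-fold lower with both. Irf1, which also responds to NF-kB, was 1.16-fold lower with both. Irf8, a factor of myeloid cells, was 1.06-fold higher with both, at 297 to 359 over the 4 arrays. A dimmer probe set of Irf8 had 146, 170, 175 and 232, above untreated cells on every treated array and 1.59-fold with both. Usp18, the protease that removes ISG15 from proteins and restrains the interferon receptor, had a log2 ratio of -0.26 with both.

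The IFIT genes encode proteins that bind viral RNA and block its translation. Ifit1 had signals of 1303 in untreated cells, 1019 with IL-17A, 1072 with FGF2 and 880 with both. Ifit2 had 297, 173, 212 and 181 in the same order, and Ifit3 494, 508, 444 and 321. With both factors the 3 genes were 1.48-, 1.64- and 1.54-fold below untreated cells, while their values with single factors differed. Each value is that of 1 array, and whether the genes differ in this was not tested. Ifit1 was lower with each factor and lowest with both. Ifit2 was lowest with IL-17A alone, at 1.72-fold below untreated cells, and adding FGF2 gave 1.05-fold more. Ifit3 was within 1.11-fold of untreated cells with either factor and lower with both together.

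The OAS genes encode enzymes that make short oligoadenylates, the messengers that activate the RNA-degrading enzyme RNase L, and the OAS-like genes encode relatives of them. Oasl1 had signals of 1205 in untreated cells, 876 with IL-17A, 907 with FGF2 and 690 with both. Oasl2 had 1837, 1491, 1455 and 1150, and Oas3 had 286, 227, 212 and 168. All 3 genes showed the same order, with untreated cells highest, either factor intermediate and both factors lowest. With both factors they were 1.75-, 1.60- and 1.69-fold below untreated cells. Their interactions were 0.06 (Oasl1), -0.04 (Oasl2) and 0.00 (Oas3), so that the log2 ratio with both factors was close to the sum of the single ones. Oas1a was 1.19-fold lower with both at signals of 4058 to 4812. Oas2 lay near the floor, at 114, 85.1, 90.7 and 115.

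**Figure D3:**
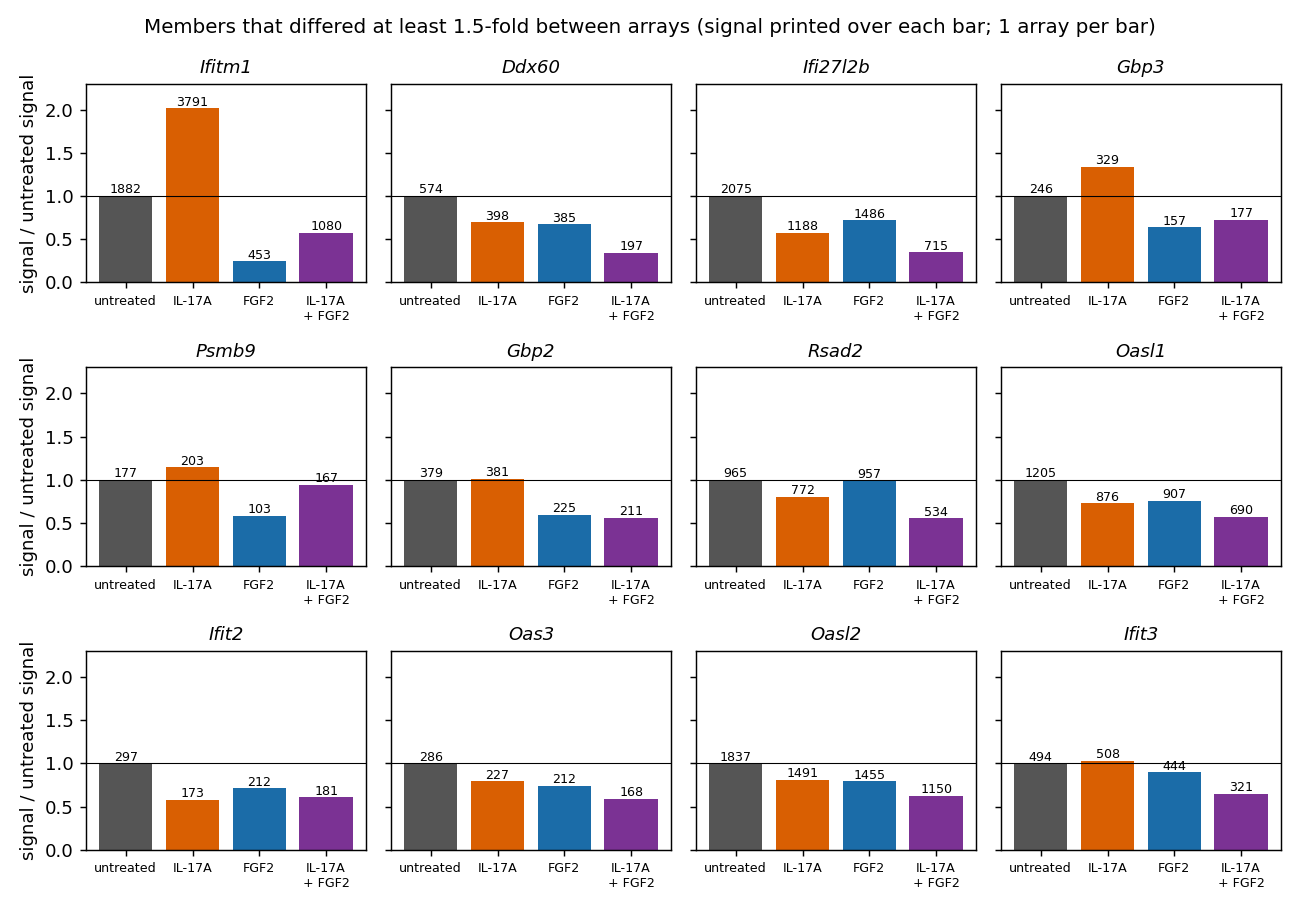
Signal divided by that of untreated cells (y axis, from 0) for the 12 members that differed at least 1.5-fold between arrays; each bar is 1 array and its signal stands above it. Ifitm1 is above 1 with IL-17A, at 3791 against 1882, and below 1 with FGF2, at 453. Oasl1, Oasl2, Oas3 and Ddx60 are highest in untreated cells and lowest with both factors.

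The interferon-induced membrane proteins, which block the entry of enveloped viruses, held the largest difference among the members. Ifitm1 had signals of 1882 in untreated cells, 3791 with IL-17A, 453 with FGF2 and 1080 with both. It was 2.01-fold higher with IL-17A alone and 4.16-fold lower with FGF2 alone. In the presence of the other factor it was 2.39-fold higher with IL-17A and 3.51-fold lower with FGF2, so that both readings of each factor went the same way. The fibroblast sum given above differed in the same direction as Ifitm1 in all 5 comparisons, and the smooth muscle sum in all but that of both factors with FGF2 alone. The 10 fibroblast markers themselves were split where IL-17A was added: 5 were above and 5 below untreated cells with IL-17A alone. With both factors against FGF2 alone 6 were above and 4 below. A part of cell content in the values of Ifitm1 was not tested. Ifitm3, which has no protein-coding gene between it and Ifitm1 in the reference table, had signals of 10520, 13432, 10486 and 13410. The arrays with IL-17A were 1.28-fold above those without it in either pair, and FGF2 alone left the signal of Ifitm3 within 1.003-fold of untreated cells. FGF2 thus went with a lower signal of Ifitm1 and not of Ifitm3. The windows of these neighbours are shown for comparison, from 250 bases before to 30 after the start, with capitals for the ISRE and GAS cores. The cores were found after the annotated start of Ifitm3 and not in the window of Ifitm1. In the gene table Ifitm1 begins at base 140967429 of chromosome 7, upstream of this window, and the bases around that position were not searched.
Ifitm1 (chr7:140967826-140968105, plus strand): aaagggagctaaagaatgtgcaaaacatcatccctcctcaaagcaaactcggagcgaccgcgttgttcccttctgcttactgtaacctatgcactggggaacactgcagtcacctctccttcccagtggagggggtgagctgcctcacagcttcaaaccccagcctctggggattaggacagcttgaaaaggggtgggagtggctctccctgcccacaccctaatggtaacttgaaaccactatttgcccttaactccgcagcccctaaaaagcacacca
Ifitm3 (chr7:141010715-141010994, minus strand): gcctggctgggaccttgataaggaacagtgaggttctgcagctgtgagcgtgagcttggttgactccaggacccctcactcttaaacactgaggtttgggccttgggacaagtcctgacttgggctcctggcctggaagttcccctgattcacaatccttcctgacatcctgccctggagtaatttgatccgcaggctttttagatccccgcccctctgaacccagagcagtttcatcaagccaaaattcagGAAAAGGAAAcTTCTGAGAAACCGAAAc

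Rsad2 (viperin), an enzyme of the endoplasmic reticulum that makes a chain-terminating nucleotide, had signals of 965 in untreated cells, 772 with IL-17A, 957 with FGF2 and 534 with both. The array with both factors was lowest, 1.81-fold below untreated cells, and FGF2 alone was 1.01-fold below. The dimmer probe sets of Rsad2 had 610, 466, 482 and 309, and 407, 348, 352 and 242, so all of them were lowest with both factors, while for FGF2 alone they were 1.27- and 1.16-fold lower. Bst2 (tetherin), which holds budding virus at the cell surface, was within 1.14-fold over the arrays, at 476 to 545.

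Guanylate-binding proteins are GTPases that attack vacuoles of intracellular microbes and respond most to type II interferon. Gbp2 had signals of 379 in untreated cells, 381 with IL-17A, 225 with FGF2 and 211 with both. Gbp3 had 246, 329, 157 and 177. In both genes the arrays with FGF2 were below those without it: Gbp2 was 1.68-fold lower with FGF2 alone and 1.81-fold lower when FGF2 was added to IL-17A, and Gbp3 1.57- and 1.86-fold lower. IL-17A alone left Gbp2 within 1.01-fold and had Gbp3 1.34-fold higher. A second probe set of Gbp2, which can detect related transcripts, had 321, 339, 184 and 222. Mx1, a GTPase that blocks influenza viruses and whose gene is disrupted in many laboratory strains, was over the floor on the combined array and on no other, at 91.4, against 39.2 to 44.6 elsewhere.

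The antigen-processing members are Psmb8 and Psmb9, catalytic subunits of the immunoproteasome, and Tap1, a subunit of the peptide transporter. Psmb9 had signals of 177 in untreated cells, 203 with IL-17A, 103 with FGF2 and 167 with both. Tap1 had 355, 347, 264 and 339. Both genes were lowest with FGF2 alone, 1.72- and 1.35-fold below untreated cells, and within 1.06-fold of them when IL-17A was also present. Psmb8 followed another order, 467, 430, 371 and 339, and was lowest with both factors. Psmb9 and Tap1 are read in opposite directions from starts 226 bases apart, and their windows overlap by 275 bases. The window of Tap1, up to 30 bases after its start, is shown because both genes share it, with capitals from the annotated start of Psmb9 to that of Tap1. Neither the ISRE nor the GAS core, as spelled above, was found in it.
Tap1 (chr17:34187306-34187585, plus strand): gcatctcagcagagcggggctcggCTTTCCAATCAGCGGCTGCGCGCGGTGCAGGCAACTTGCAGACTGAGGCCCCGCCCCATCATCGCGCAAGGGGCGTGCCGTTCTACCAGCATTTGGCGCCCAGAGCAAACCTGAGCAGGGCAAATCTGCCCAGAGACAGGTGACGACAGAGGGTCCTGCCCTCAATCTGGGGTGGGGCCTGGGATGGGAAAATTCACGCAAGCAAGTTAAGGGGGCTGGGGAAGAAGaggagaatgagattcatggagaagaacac

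Of the remaining members, Ifi27l2b, of a family of small mitochondrial and membrane proteins, had signals of 2075 in untreated cells, 1188 with IL-17A, 1486 with FGF2 and 715 with both. It was lowest with both factors, 2.90-fold below untreated cells, and 2.08-fold below FGF2 alone. It has a single probe set, which can detect related transcripts. Xaf1, a pro-apoptotic protein, was 1.30-fold lower with both, Parp14, a mono-ADP-ribosyltransferase, 1.26-fold, Rtp4, a chaperone of receptors, 1.13-fold and Ifi35 1.11-fold. The brightest probe set of Ifi35 can detect related transcripts. A dimmer probe set of Ifi35 without this limit had 1119, 1017, 973 and 767, 1.46-fold lower with both. Another dimmer one, which has the limit, was 1.08-fold lower with both.

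**Figure D4:**
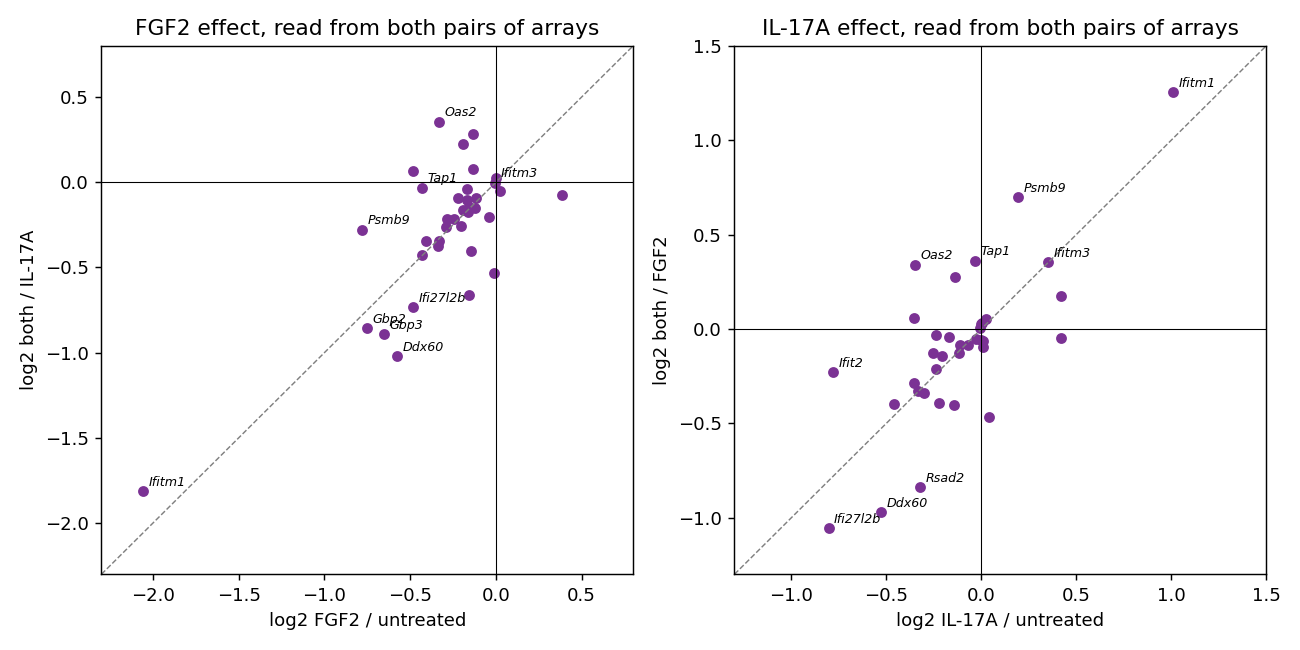
Log2 ratio for the 36 measured members read from the pair of arrays without the other factor (x axis) and the pair with it (y axis), for FGF2 on the left and IL-17A on the right; the dashed line marks equal values and each dot is 1 gene. On the left 28 genes lie below 0 on both axes, with Ifitm1 at -2.06 and -1.81, and on the right Ifitm1 lies at 1.01 and 1.25.

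Whether the factors combined beyond their single effects was read from the interaction. Its median over the members was 0.02, the same as over all measured genes (0.02). The lowest values were those of Rsad2 (-0.52) and Ifit3 (-0.51), lower with both factors than the sum of the single effects, followed by Eif2ak2 (-0.46) and Ddx60 (-0.45). The value of Rsad2 is that of its brightest probe set. Its dimmer probe sets, 1.27- and 1.16-fold lower with FGF2 alone, had interactions smaller in size. The highest values were those of Oas2 (0.69), near the floor, Ifit2 (0.55) and Psmb9 (0.50), the last near the floor with FGF2 alone. Since the yardstick of error is itself made from interactions, these values have no error of their own to be set against.

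The comparison of both factors with each one alone gives what went with the added factor. Against IL-17A alone 6 of 36 members were at least 1.5-fold lower, against 4.09% of all genes, and 2 at least 2-fold lower, Ifitm1 and Ddx60, against 0.857%. None, 0 of 36, was 1.5-fold higher in that comparison, against 2.8%, or 2-fold higher, against 0.547%. Against FGF2 alone 3 of 36 were at least 1.5-fold lower, against 2.06%, namely Ifi27l2b, Ddx60 and Rsad2. In the same comparison 2 were at least 1.5-fold higher, Ifitm1 and Psmb9 (1.62-fold, from a signal near the floor), against 1.83%. At 2-fold these numbered 1 lower (0.269% of all genes) and 1 higher (0.367%). Below 0 were 30 members against IL-17A alone and 24 against FGF2 alone, where 47.6% and 47.1% of all genes were. With median-centred arrays these were 22 and 19 members, and 30.8% and 34.8% of all genes.

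Upstream of the members, the interferon genes themselves were near background. Of 21 listed symbols of interferon ligands, older names included, 10 were matched and 1 of them, Ifnz, was over the floor, at 124 to 138. The probe sets of Ifnb1 and Ifng were under the floor on every array, which does not show that the genes were silent. All 6 matched receptor genes were over the floor. Ifnar1 had signals of 547, 529, 682 and 579 in untreated, IL-17A, FGF2 and combined arrays, Ifnar2 1491, 1692, 1470 and 1279, Ifngr1 3157, 2917, 2515 and 2314, and Ifngr2 818, 1118, 1068 and 1017. Ifngr1 was lowest with both factors and Ifngr2 was lowest in untreated cells. The 7 matched genes of downstream kinases and factors had a median log2 ratio of -0.06 with both factors. Of the genes that restrain signalling, Socs1 was under the floor on all arrays, and Socs3, which also responds to the IL-6 family and was singled out after its values were seen, had 2060, 2760, 2542 and 3973.

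Other interferon-stimulated genes, from a list of 54 symbols that leaves out the members, were mostly lower as well on the arrays with FGF2. Of 43 matched and 35 measured, 29 (82.9%) were below 0 with both factors (median log2 ratio -0.34), against 49.6% of all measured genes, and 29 with FGF2 alone (-0.21), against 51.6%. With IL-17A alone it was 21 (-0.07), against 52.8% of all genes, closer to the background. At least 2-fold lower with both factors, as 1.73% of all genes were, was 1 gene, Ifi27l2a, at 512 in untreated cells, 601 with IL-17A, 187 with FGF2 and 229 with both. Ifi27l2a was thus low on the arrays with FGF2, whereas its relative Ifi27l2b was low on all treated arrays. Cmpk2, which adjoins Rsad2 with no protein-coding gene between them and was chosen after its values were seen, had 253, 200, 228 and 138, and like Rsad2 was lowest with both factors. The chemokine gene Cxcl10, a common read-out of interferon action, was near the floor at 101, 143, 73.8 and 107. These genes were chosen with earlier results of the data known and are no independent support.

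The genes of class I antigen presentation had medians closer to untreated cells, though most were lower on the arrays with FGF2. Of 16 symbols 13 were matched and 12 measured, with medians of -0.01 with IL-17A, -0.13 with FGF2 and -0.10 with both. Below 0 were 6 of 12 with IL-17A, 9 with FGF2 and 9 with both, against 52.8%, 51.6% and 49.6% of all measured genes. In these comparisons 0 were 2-fold different, where 1.73% of all measured genes were 2-fold lower with both factors and 0.906% higher. With 12 genes, 0 is near these shares. H2-K1, a class I heavy chain, had 12044, 11648, 12016 and 11390, and B2m, its light chain, 14564, 14759, 12913 and 14417. Of 6 matched class II genes 4 were over the floor on some array, and the 6 summed to 515 to 582.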

How the data were processed

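RNA of 4 cultures was measured on 3′ expression arrays, 1 per group. The authors deposited 1 log2 signal per probe set and array, made with MAS5 per the submitters' processing notes (version not given in the sources used here). Turned back from log2, each array's trimmed mean (2%) was 500. MAS5 subtracts mismatch signal, so dim values are noisy.

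Of 45101 probe sets, 64 were controls and were left out, and 34945 had 1 gene symbol in the platform annotation, 932 several and 9160 none. All 37 matched members had an Entrez identifier in the GRCm38.p6 gene table. Signals were raised to a floor of 89.8 (log2 6.49), so folds that involve a floored array are lower bounds. Log2 ratios and folds were taken from these. With 1 array per group there was no test, and the number of arrays limits the precision.

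Members with a range of at least 1.5-fold were described array by array and other members by folds or ranges. Genes of the pathway lists were named at a range of at least 2-fold, with Ifnar1, Ifnar2, Ifngr1, Ifngr2, Cxcl10, H2-K1, B2m and Socs1 named whatever their values, and at most 2 genes per marker list; 1 further gene of that rule is not reported here. Signals given for other members, and Socs3, Cmpk2, Ifnz, Cd14, Csf1r, Vim, Dcn, Krt8 and Cd3e, were chosen after their values were seen. The members and lists were chosen with earlier results of these data known. Alternatives were 2 scalings, 3 other floors, the mean of probe sets, leaving out probe sets open to related transcripts, and thresholds of 1.5 and 3. Probe sets with names ending in _a_at, _s_at or _x_at were counted as open to related transcripts. Python 3.11.15, numpy 2.4.6 and pandas 2.3.3 were used, and the code was tested on simulated data.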

Additional observations from a re-analysis of the deposited data

Results flagged for a closer look

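Oas2 was the measured member in which both factors had opposite directions by at least 1.2-fold in the 2 pairs of arrays. The log2 ratio that went with IL-17A was -0.35 without FGF2 and 0.34 in its presence, and that with FGF2 was -0.33 without IL-17A and 0.36 in its presence. The difference was not tested. The signals of Oas2, 114, 85.1, 90.7 and 115, lay near the floor of 89.8.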

How the results depend on the processing

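No paired analysis was possible because each group has 1 array, whose replicate number only names it, and leaving out an array would leave a group empty. Of the values that answer a comparison, 122 were unchanged in call or size under the alternatives and 26 moved. The tolerance was 0.1 log2 for a median and 1.5 times for a count. Reversals were not counted for these values, and a median near 0 could change sign within the tolerance. For the named members 556 values were within the yardstick SD of the main one and 29 were not, and 0 differences of at least 2-fold reversed. Smaller ones did change sign: 10 of 80, whose main log2 ratios were at most 0.0973 from 0, among them with median-centred arrays Rsad2 with FGF2 (0.079), Ifitm3 with FGF2 (0.087), and Tap1 (0.088) and Psmb9 (0.072) with both factors. The members' median log2 ratio stayed below 0 in all 5 comparisons under every setting run. With median-centred arrays it was -0.165 for both factors against untreated and -0.0700 against IL-17A alone. Against FGF2 alone it was then -0.012, close to 0, with 19 members below 0 and 17 above. The other values that moved are counts of members at least 2-fold different, of which the main ones were 1 higher with IL-17A, 2 lower with both factors, 2 lower with both against IL-17A alone, and 1 lower and 1 higher with both against FGF2 alone. At a 1.5-fold threshold, members lower numbered 2 (IL-17A), 4 (FGF2), 10 (both), 6 (both against IL-17A) and 3 (both against FGF2), with 2 higher in the last. At 3-fold, 0 were higher with IL-17A, 0 lower with both, 1 lower against IL-17A, and 0 lower and 0 higher against FGF2. With the floor added to the signal, 0 were higher with IL-17A, 1 lower against IL-17A and 0 lower against FGF2. Median centring gave 1 lower against IL-17A and 0 lower against FGF2, and quantile normalization 1 lower against IL-17A. The floor at the 75th percentile gave 1 lower with both and 1 against IL-17A, and at the 25th 1 higher with both, 1 higher against IL-17A and 2 higher against FGF2. Without probe sets open to related transcripts 1 was lower with both and 0 lower against FGF2. Mx1, Mx2 and Oas2, and Psmb9 on the FGF2 array, are limited by signal near the floor. The setting with members over the floor on all 4 arrays was chosen after seeing the data.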
